A study of Mus musculus with 6 samples.

Results

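Epididymis genes are described here in abdominal adipose tissue of mice after duodenal-jejunal bypass. They are 10 genes known for expression in the epididymis: Crisp1, Crisp4, Lcn5, Lcn8, Lcn9, Adam7, Adam28, Rnase10, Cst8 and Spink11. The genes were chosen with earlier results of these data known, and their probes by the gene name in the deposited scanner files. That rule found 12 of the 150305 non-control probes, and they cover 9 of the 10 genes and 9 of the 19205 gene names with a probe by that field. Spink11 had no probe under its own name. A further 9 probes carry a RefSeq accession in place of a gene name and matched 9 of the 10 genes, Spink11 included. They were added after the files were seen and are given separately.

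The arrays hold 3 Sham samples and 3 DJB samples of C57BL/6 mice. A high-fat diet was begun in all of them at the age of 6 weeks, and surgery followed 12 weeks later. The DJB mice received a duodenal-jejunal bypass with a biliopancreatic limb of 5 cm and a Roux limb of 4 cm under anesthesia with buprenorphine. In the Sham mice the abdomen was opened and the intestine cut and sewn back in place. The labels name abdominal adipose tissue and give neither the fat depot, nor the sex, nor the time after surgery, and do not say whether each array is a separate mouse, so a p-value here speaks of the spread over these arrays, which may be technical.

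The epididymis is the coiled duct in which sperm mature after leaving the testis. Its epithelium secretes, segment by segment and largely under androgen control, a fluid rich in lipocalins, cysteine-rich secretory proteins, defensins, cystatins and protease inhibitors. In male mice one large visceral fat pad, the epididymal pad, is attached to the epididymis and testis, while other visceral pads are not.

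An array was scaled to its 75th percentile of processed intensity, which lay between 132 and 184 in arbitrary units. Intensities below are processed intensities before that scaling, and log2 levels are relative to that percentile. A spot is called above background where the scanner software flagged it as well above background; the lowest intensity with that flag lay between 4.97 and 6.66 on the 6 arrays, and a value under it has no order. Over all probes 62.6% to 68.8% of spots were above background on an array. The arrays came on 2 slides, with Sham-1, Sham-3, DJB-1 and DJB-2 on the first and Sham-2 and DJB-3 on the second. Sham-1 stood apart in genes of the seminal vesicle and prostate, as described below. Of the mature adipocyte list, 12 of 12 genes were above background on every array. The 4 Y-linked genes measured (Ddx3y, Eif2s3y, Kdm5d and Uty) were above background on all 6 arrays and Xist, which is transcribed from the inactive X chromosome, on none.

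Where a probe lies shows which RNA it can report. Of the 12 probes, each 60 bases long, 8 map to mm9 positions wider than their own length, so they cross an exon junction and match spliced RNA. The other 4 (Adam7, Rnase10, Cst8 and 1 of the Adam28 probes) lie within a single exon. The sequences shown are of probes with an open reading frame that contrast members of a family or probes of one gene, printed 5′ to 3′ in the sense direction as the scanner files give them, in lower case with nothing marked.
Crisp1 (chr17:40435143-40438282, minus strand): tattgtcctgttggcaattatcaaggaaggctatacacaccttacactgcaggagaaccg
Crisp4 (chr1:18105782-18112822, minus strand): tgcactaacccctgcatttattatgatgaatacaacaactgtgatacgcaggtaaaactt
Lcn8 (chr2:25509795-25510307, plus strand): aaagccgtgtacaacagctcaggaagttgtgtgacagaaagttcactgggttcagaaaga
Lcn9, the probe at background (chr2:25680052-25680236, plus strand): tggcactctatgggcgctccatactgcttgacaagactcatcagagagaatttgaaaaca
Adam28, the probe above background on every array (chr14:69245002-69247117, minus strand): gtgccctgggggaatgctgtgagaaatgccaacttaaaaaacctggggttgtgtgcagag
Adam28, a probe above background on 1 array (chr14:69227217-69227958, minus strand): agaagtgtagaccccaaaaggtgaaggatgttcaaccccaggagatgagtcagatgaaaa

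The epididymis genes were detected unevenly from array to array, with arrays of both groups among those that showed more of them and those that showed fewer. Of 72 values (12 probes on 6 arrays) 27 were above background, or 37.5%, against 65.5% of the values of all probes. The Sham arrays gave 16 of 36 and the DJB arrays 11 of 36. Sham-1 had 7 probes above background, Sham-2 had 6, DJB-2 had 5, and Sham-3, DJB-1 and DJB-3 had 3 each. Those 3 were the same probes on Sham-3, DJB-1 and DJB-3, since 3 probes were above background on all 6 arrays, 4 on none and 5 on some arrays, and none of the 5 was above background on Sham-3, DJB-1 or DJB-3.

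Crisp1 encodes a cysteine-rich secretory protein that coats sperm in the epididymis. Its probe read 12.6 on Sham-1, 3.51 on Sham-2 and 1.20 on Sham-3, and 1.31, 63.7 and 1.21 on DJB-1, DJB-2 and DJB-3. DJB-2 was highest, Sham-1 was also above background, and the other 4 arrays were not, so the groups overlapped. Crisp4, another secreted member of the family made in the epididymis, was above background on no array: its probe read 1.25, 1.64 and 1.96 in Sham and 1.32, 4.32 and 1.22 in DJB.

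The lipocalins are small secreted carriers of lipids. Lcn5, the epididymal retinoic acid-binding protein, read 1.20, 81.3 and 1.21 in Sham and 1.25, 25.4 and 1.12 in DJB. It was above background on Sham-2 and DJB-2, 1 array of each group, and the Sham-1 array that held Crisp1 was at background for Lcn5. Lcn8, the next coding gene to Lcn5 on chromosome 2, was above background on no array, with 4.31 on Sham-1 and 1.06 to 1.34 on the others. Lcn9, a further epididymal lipocalin of the same stretch with 8 coding genes between it and Lcn5, had probes that disagreed. One Lcn9 probe (chr2:25680287-25680801) read 36.4, 24.3 and 31.7 in Sham and 30.2, 29.4 and 20.9 in DJB, above background everywhere and with little spread. The other Lcn9 probe, printed above, read 1.01 to 1.35 and was above background on no array, although both lie in the same transcript and share no run of over 6 bases. The level of Lcn9 was therefore uncertain on these arrays.

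Adam7 is a membrane protein of the epididymal epithelium that passes to sperm. Its probe read 120.4, 67.1 and 1.34 in Sham and 5.97, 5.33 and 6.00 in DJB. Sham-1 and Sham-2 were above background, and Sham-3 and the DJB arrays were not. The DJB arrays were taken at the lowest level above background or their own value, whichever was higher. On that basis this Adam7 probe was at least 3.08-fold brighter in Sham (log2 means of -3.03 in Sham and -4.67 in DJB). That bound rests on 2 of 3 Sham arrays, and the groups overlapped (exact permutation test, two-sided, p = 0.4; with 3 arrays against 3 that test cannot go below 0.1). Adam28, a metalloprotease known from lymphocytes as well as the epididymis, lies next to Adam7 with Adamdec1 between them. One of its 3 probes read 41.9, 33.6 and 43.2 in Sham and 67.7, 38.4 and 27.9 in DJB, above background everywhere. A second Adam28 probe read 6.12 on Sham-1, above background there, and 1.03 to 1.41 elsewhere. The third was above background on no array, with 4.84 on Sham-1 and 1.07 to 1.38 elsewhere. The probes of Adam28 thus disagreed as those of Lcn9 did.

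Rnase10 encodes a secreted member of the ribonuclease A family from the proximal epididymis. Its probe read 18.7, 19.8 and 28.3 in Sham and 19.9, 15.1 and 11.5 in DJB. All 6 were above background and the groups overlapped. Cst8, a cystatin-related protein of the proximal epididymis that is also made by germ cells of the testis, read 23.7, 42.0 and 2.27 in Sham and 1.17, 1.16 and 2.24 in DJB. Like Adam7 it was above background on Sham-1 and Sham-2 and on no other array. By the same bound this Cst8 probe was at least 1.97-fold brighter in Sham (log2 means of -3.79 in Sham and -6.66 in DJB). Again the bound rests on 2 of 3 Sham arrays, and the groups overlapped (exact permutation test, two-sided, p = 0.2).

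**Figure D1:**
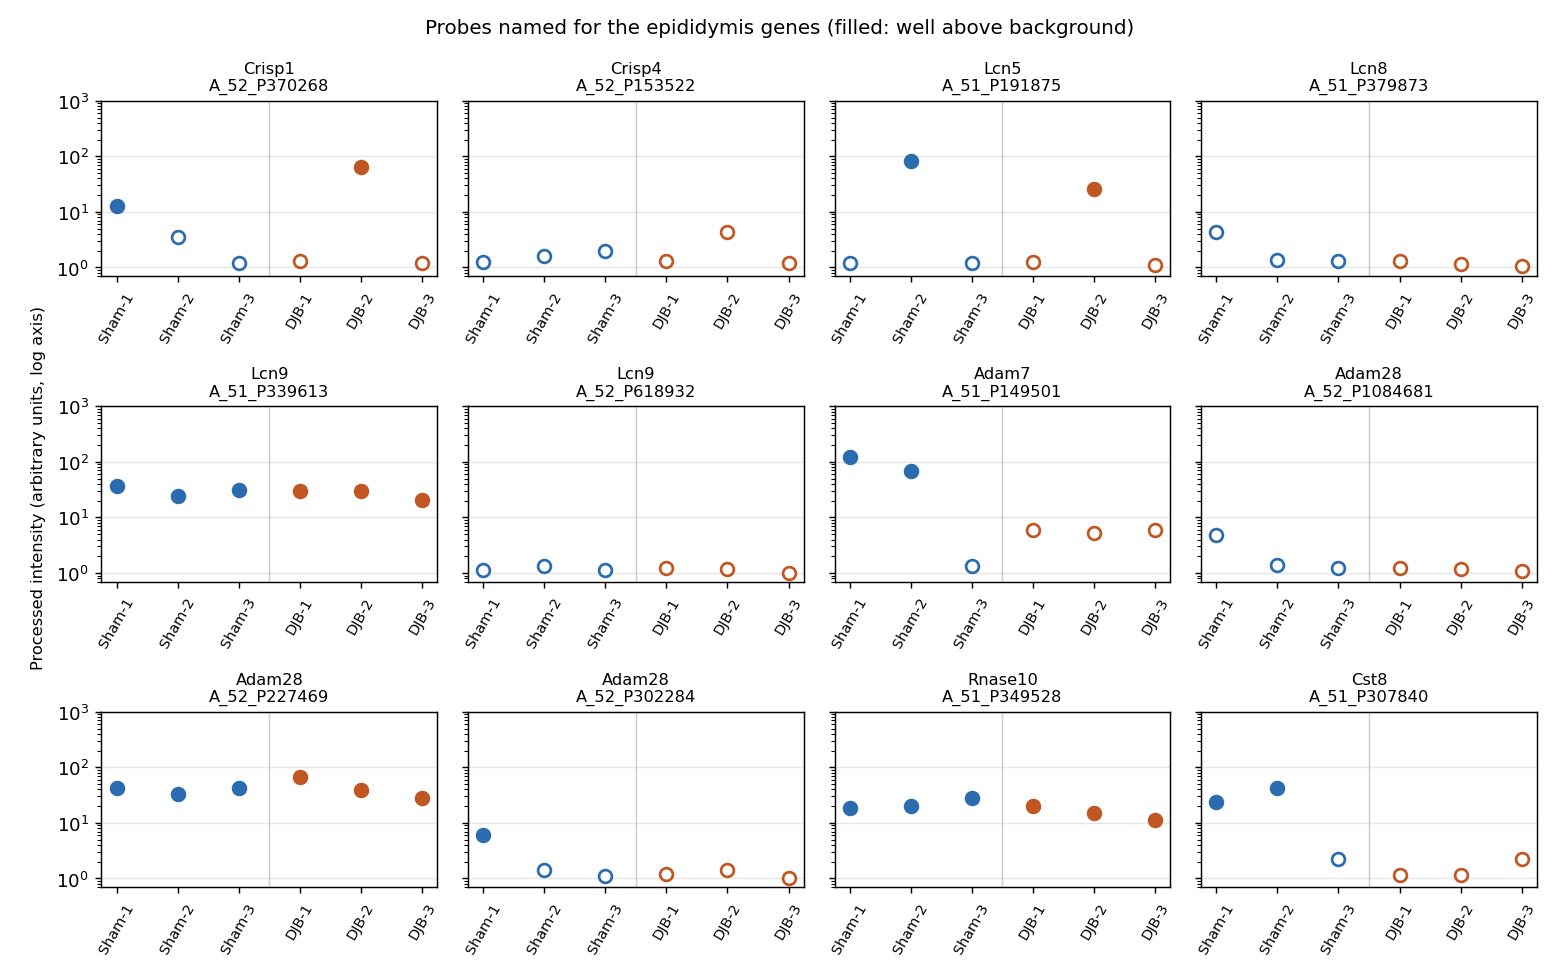
Processed intensity (arbitrary units, log axis) of the 12 probes of the epididymis genes on each array, with Sham in blue and DJB in orange; a filled point is well above background and an open point is not. Lcn9, Adam28 and Rnase10 have 1 probe each that is filled on all 6 arrays, and the others are filled on Sham-1, Sham-2 or DJB-2 or on none.

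Each of these patterns over arrays held a small share of all probes. Above background on 1 to 5 arrays were 14.0% of all probes, split over many patterns. A small share for 1 pattern therefore does not set it apart. Above background on Sham-1 and Sham-2 and on no other array were 1179 probes, or 0.784% of all, Adam7 and Cst8 among them. The pair Sham-1 and DJB-2, as seen for Crisp1, was found for 284 probes, or 0.189%. The pair Sham-2 and DJB-2, as seen for Lcn5, was found for 55 probes, or 0.0366%. Sham-1 alone, as seen for 1 Adam28 probe, was found for 2342 probes, or 1.56%. In contrast 59.1% of all probes were above background on every array and 26.9% on none. Among the probes of RefSeq mRNAs the shares of the pairs were 1.48%, 0.115% and 0.0382% in the same order. Sham-1 alone had 1.23% of them, every array 78.4% and no array 11.1%.

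The accession-named probes of the same genes gave a similar picture only in part. Of their 54 values 25 were above background, 14 in Sham and 11 in DJB. By array they numbered 7 on Sham-1, 5 on Sham-2, 2 on Sham-3, 2 on DJB-1, 5 on DJB-2 and 4 on DJB-3. Adam7 read 641.7, 335.5 and 3.78 in Sham and 6.03, 35.0 and 34.7 in DJB. Here DJB-2 and DJB-3 were above background as well as Sham-1 and Sham-2. Neither Adam7 probe was above background on Sham-3 or DJB-1. By the scanner's weaker flag for a positive and significant signal, the accession-named Adam7 probe passed on 6 arrays and the named one on 5. Cst8 read 45.0, 58.8 and 15.5 in Sham and 24.9, 20.6 and 10.3 in DJB. All 6 values of that Cst8 probe were above background, and Sham-1 and Sham-2 were again the brightest. By its group means it was 1.61-fold brighter in Sham, less than the bound given for the named Cst8 probe.

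Spink11, a Kazal-type protease inhibitor of the epididymis, was measured by 1 probe of this kind. It read 9.66, 11.6 and 1.17 in Sham and 1.20, 8.13 and 1.08 in DJB. It was above background on Sham-1, Sham-2 and DJB-2, and Crisp1, Lcn5 and the pair Adam7 and Cst8 were each above background, by their named probes, on a different pair of those 3 arrays. Rnase10 read 440.04, 476.2 and 499.4 in Sham and 280.8, 320.1 and 256.0 in DJB. It was bright on all 6 arrays, with every DJB array below every Sham array. The remaining accession-named probes were dim: Lcn8 reached 7.68 on Sham-1 and Adam28 reached 9.40 on Sham-1, above background there and on no other array, and those of Lcn5 and Lcn9 were above background on none. For Lcn9, then, 2 of 3 probes were dark on all arrays, and for Adam28 the bright probe was 1 of 4. The Lcn5 pattern likewise rested on 1 of 2 probes. The accession-named Lcn5 probe read 1.35 on Sham-2 and 2.22 on DJB-2, where the named one read 81.3 and 25.4.

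The accession-named Crisp1 probe read 119.9, 22.0 and 4.26 in Sham and 4.11, 419.1 and 6.76 in DJB. It was above background on Sham-1, Sham-2, DJB-2 and DJB-3. This probe shares a run of 40 of its 60 bases with a probe of Crisp3, a family member known from salivary gland, so RNA of the 2 genes could not be told apart by it. The Crisp1 probe printed above shares at most 6 bases in a row with either Crisp3 probe, and it too was highest on DJB-2 and next on Sham-1. The Crisp3 probe with the shared run read 281.7 on DJB-2 and 74.0 on Sham-1, whereas a Crisp3 probe without it read 1.08 to 2.10 on all arrays.

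**Figure D2:**
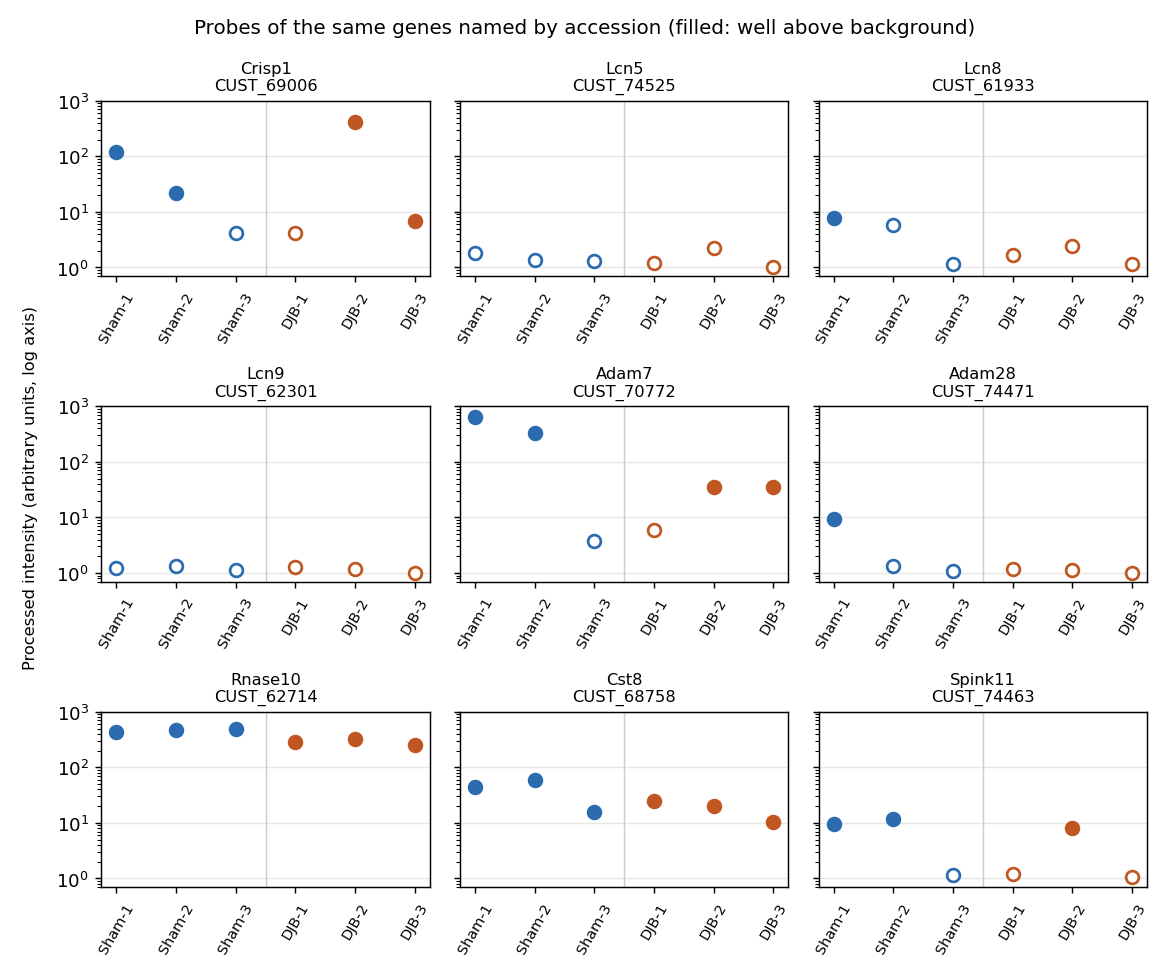
Processed intensity (arbitrary units, log axis) of the 9 accession-named probes of the same genes on each array, with Sham in blue and DJB in orange and filled points well above background. Spink11 is filled on Sham-1, Sham-2 and DJB-2, Adam7 on those and DJB-3, and Rnase10 and Cst8 on all 6 arrays.

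DJB was then compared with Sham by limma on the log2 levels, over the 99431 probes above background on at least 3 of 6 arrays. Of the 12 epididymis probes 3 entered this test and none passed an adjusted p of 0.05 (limma with Benjamini-Hochberg adjustment); 0 of the 3 had an unadjusted p under 0.05. Among all tested probes 5.00% passed. The median difference, DJB minus Sham, of the 3 was 0.10 on the log2 scale, beside 0.08 for all tested probes. Of the accession-named probes 5 were tested and 0 passed. In fat tissue of mixed cells, fewer cells of a type and less RNA per cell cannot be told apart.

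Lcn9 differed by 0.10 (SE 0.17), with a log2 level of -2.57 ± 0.26 in Sham and -2.47 ± 0.18 in DJB (SD, n = 3; limma adjusted p = 0.736). Adam28 differed by 0.38 (SE 0.25), from -2.20 ± 0.16 in Sham to -1.82 ± 0.48 in DJB (limma adjusted p = 0.366). Rnase10 differed by -0.24 (SE 0.20), from -3.05 ± 0.31 to -3.28 ± 0.23 (limma adjusted p = 0.481). With 1 array left out Adam28 differed by 0.12 (without DJB replicate 1) to 0.60 (without DJB replicate 3), Rnase10 by -0.36 (without Sham replicate 1) to -0.06 (without Sham replicate 3), and Lcn9 by -0.04 (without Sham replicate 2) to 0.22 (without Sham replicate 1). None of these differences exceeded the spread between replicates by this test, and a difference of their size is not excluded.

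The brighter Rnase10 probe, named by accession, had the smallest p of the 8 tested. Its level was 1.38 ± 0.10 in Sham and 0.95 ± 0.19 in DJB (SD, n = 3), a difference of -0.43 (SE 0.14, limma adjusted p = 0.111). It was the single tested probe of the genes without overlap of the groups, and 14.2% of all tested probes had every DJB array below every Sham array. The difference was -0.40 within the first slide and -0.48 within the second, and under normexp background correction its adjusted p was 0.0497. The other accession-named probes varied more within a group than between groups. Adam7 had an SD of 4.05 in Sham and 1.61 in DJB around a difference of -1.97 (SE 2.01, limma adjusted p = 0.560). That difference was -0.58 without Sham replicate 1 and -4.29 without Sham replicate 3 (limma adjusted p = 0.0743). Crisp1 had an SD of 2.41 in Sham and 3.69 in DJB around a difference of 0.32 (SE 2.04, limma adjusted p = 0.935), which was -1.79 without DJB replicate 2 and 1.63 without DJB replicate 1. Spink11 differed by -0.91 (SE 1.15) and Cst8 by -0.69 (SE 0.55), with limma adjusted p-values of 0.639 and 0.450. With 1 array left out both were smallest without Sham replicate 2 (-0.29 for Spink11 and -0.28 for Cst8) and largest without Sham replicate 3 (-1.98 and -1.28). Within the first slide Cst8 differed by 0.02 and Spink11 by 0.14, and within the second by -2.11 and -3.02.

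**Figure D3:**
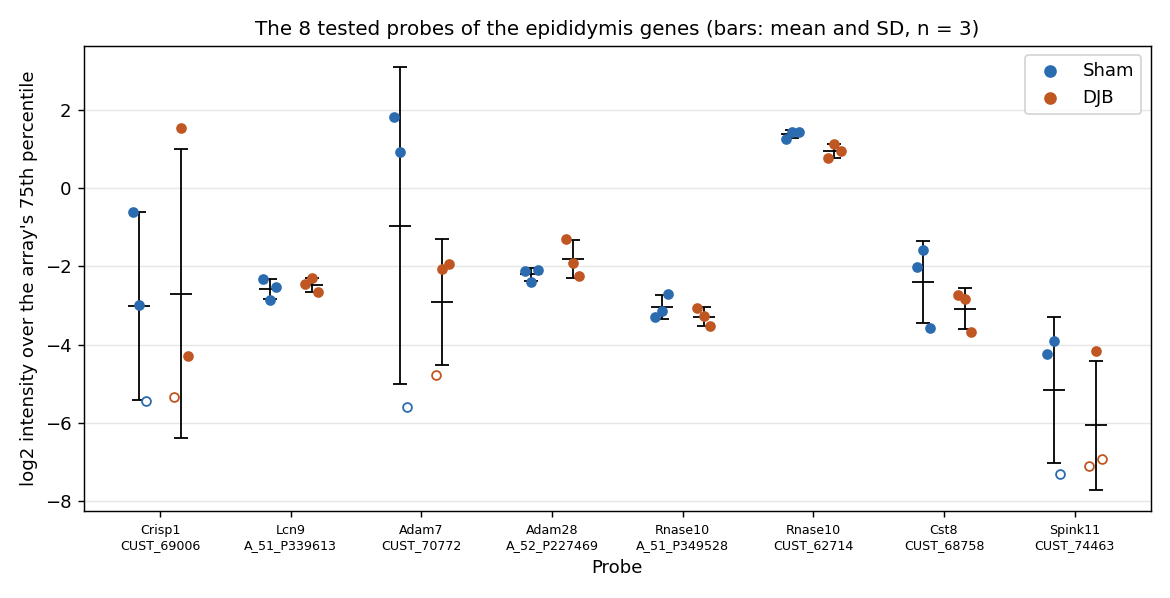
Log2 level relative to the array's 75th percentile of the 8 tested probes, with each array as a point (Sham blue, DJB orange, open where not well above background) and bars for the mean and SD of 3 arrays. Crisp1, Adam7 and Spink11 spread over several log2 units within a group, whereas Lcn9, Adam28 and Rnase10 are tight.

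Other genes of the epididymis varied over the arrays as well. The list held 44 genes with probes for 43: beta-defensins, further lipocalins, WFDC and Kazal protease inhibitors, ribonucleases, cystatins and the transcription factors Pax2 and Pax8. By array 29 of 43 had a probe above background on Sham-1, 27 on Sham-2, 22 on Sham-3, 23 on DJB-1, 30 on DJB-2 and 21 on DJB-3. The 18 genes above background on all arrays made up most of each count, and 6 were above background on none. Summed over the brightest probe of each gene and without Sult1e1, the intensity was 4087 on Sham-1, 3306 on Sham-2, 1151 on Sham-3, 1150 on DJB-1, 1724 on DJB-2 and 805 on DJB-3. Sham-1 and Sham-2 were highest and DJB-2 came next.

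Of the 43 genes 25 were tested. None was higher in DJB and 1 was lower, where 1.40% of the 18325 genes tested were higher and 6.10% lower. The median difference of the 25 was -0.71, beside 0.00 for all tested genes (limma, log2 scale). Of the 25, 18 were negative, beside 49.6% of all named genes tested. Sult1e1, the estrogen sulfotransferase made both in the epididymis and in white fat of male mice, fell. It read 4682, 5696 and 4824 in Sham and 411.3, 955.2 and 1030 in DJB, with no overlap of the groups. Its level went from 4.80 ± 0.19 to 2.33 ± 0.89, a difference of -2.47 (SE 0.43, limma adjusted p = 0.0392). The call was kept under 8 of 15 alternatives and lost with the slide as a block, without any 1 of the Sham replicates and without DJB replicate 2; the difference was -2.68 within the first slide and -2.05 within the second.

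Several defensins and inhibitors, picked after their values were seen, were bright on the same arrays as members, and other genes of the list were not. Defb29, a beta-defensin, read 1524 and 1027 on Sham-1 and Sham-2 and 34.7 to 53.7 on the other 4 arrays, as for Adam7. Spag11b, a defensin-like sperm-binding protein, read 187.5 and 366.3 on Sham-1 and Sham-2, 29.1 on DJB-3 and 1.15 to 2.31 elsewhere. Spink8, a Kazal-type inhibitor, read 64.2 on Sham-1, 22.1 on Sham-2 and 216.4 on DJB-2 and 1.09 to 3.14 elsewhere. For each of these 3 the range within Sham exceeded the difference between the group means. Wfdc13 read 97.8 on DJB-2 and at most 1.90 on the other arrays. Gpx5, an abundant glutathione peroxidase of the caput epididymis, was above background on Sham-2 alone, at 7.60. Genes that ran otherwise were also picked after their values were seen. Cst11 was brightest on Sham-3, at 83.1 against 12.9 to 25.4 elsewhere. Lcn10 read 61.2 to 99.1 and Spink10 64.9 to 104.9 over all arrays. Without Sham replicate 3, 7 genes of the list passed the threshold, all lower in DJB, Defb29 (-4.64, limma adjusted p = 0.0159) and Pax2 (-4.12, limma adjusted p = 0.0264) among them. Without Sham replicate 1, without Sham replicate 2 or without DJB replicate 2, 0 passed.

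**Figure D4:**
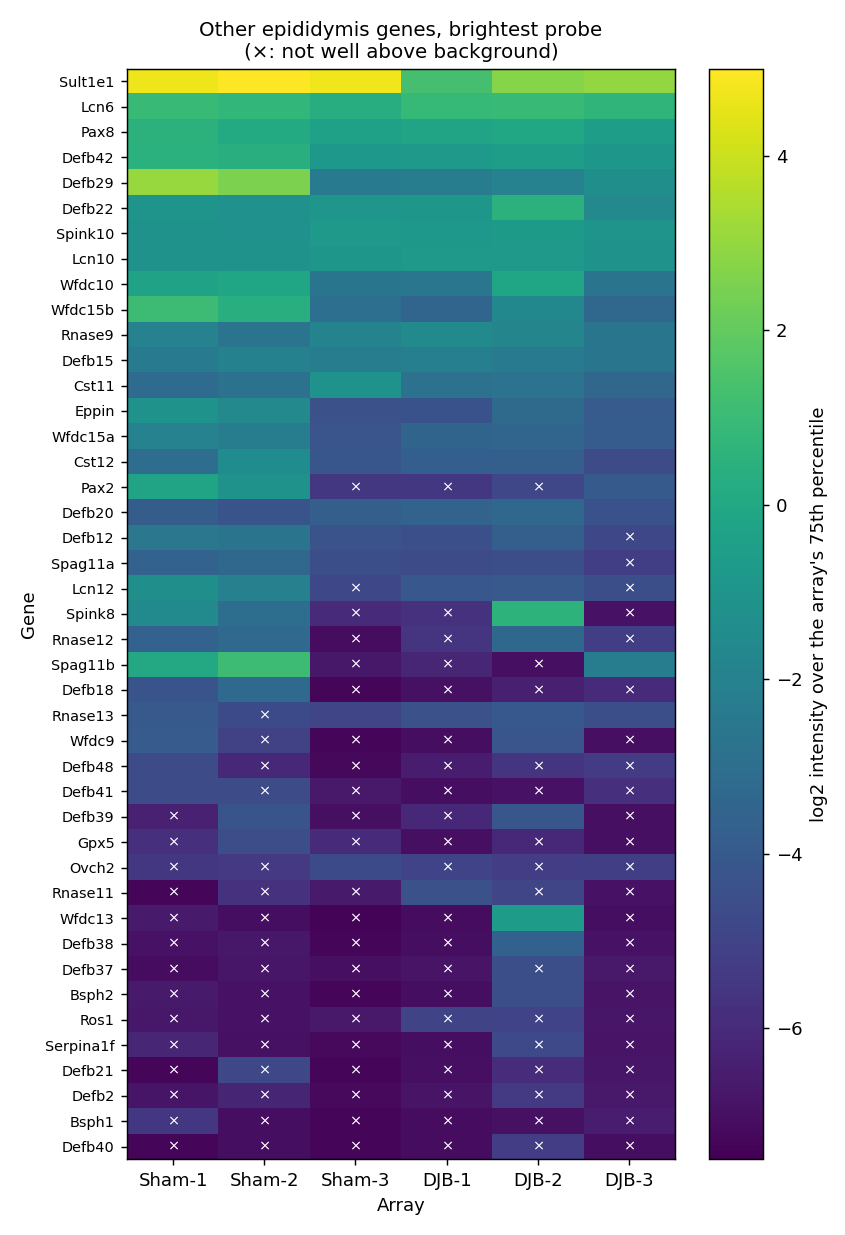
Log2 level relative to the array's 75th percentile (color) of the brightest probe of 43 other epididymis genes (rows) on the 6 arrays (columns); a cross marks a value not well above background. Defb29, Wfdc15b, Eppin and Pax2 are brighter on Sham-1 and Sham-2 than on the other arrays, and Spink8 and Wfdc13 are brightest on DJB-2.

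Relatives of the members from the same gene families, most of them made outside the epididymis, had probes for 35 genes. Of these 28 were tested, of which 2 were higher and 1 was lower in DJB, with a median difference of 0.07. Crisp2, the family member of testis and sperm, read 600.3, 504.8 and 146.2 in Sham and 15.9, 24.3 and 15.1 in DJB. It fell by 4.00 on the log2 scale (SE 0.56, limma adjusted p = 0.0283), with each DJB array below each Sham array. Its call was lost with the slide as a block and on leaving out any 1 array but Sham-3, although the difference was -3.67 and -4.65 within the slides. Adam8, a metalloprotease of leukocytes, rose by 0.89 (SE 0.16, limma adjusted p = 0.0396), and Adam10, a widely expressed sheddase, rose by 0.59 (SE 0.11, limma adjusted p = 0.0465). These calls too were lost with the slide as a block, and on leaving out any 1 of the 6 arrays, Adam8 also under quantile normalization and with the authors' values (limma adjusted p = 0.0597 in both) and Adam10 under median scaling (0.0520); Adam8 differed by 1.02 and 0.62 within the slides and Adam10 by 0.56 and 0.64.

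Genes of the organs around the epididymis were set beside the members for each array. Of 16 seminal vesicle and prostate genes 15 were above background on Sham-1, 6 on Sham-2, 9 on Sham-3 and 5 on each DJB array. Their summed intensity was 76658 on Sham-1 and 407 to 791 on the other 5 arrays. Svs5, a seminal vesicle secretory protein, read 36646 on Sham-1 and 77.0 to 263.3 elsewhere, and its relative Svs3b read 1042 against 207.8 to 317.9. Sham-2 and DJB-2 carried the epididymis genes at a summed seminal vesicle and prostate level of 616 and 556, within the range of Sham-3, DJB-1 and DJB-3. Of the 6 genes of this list that were tested 0 passed.

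Of 16 testis genes 13 to 15 were above background on each array, with a summed intensity of 14637 on Sham-1, 13601 on Sham-2 and 4920 to 6368 on the other 4. Of the 14 tested 0 passed. The brightest of them were Cyp17a1 and Insl3 of the steroid-making Leydig cells. Cyp17a1 read 1785 to 2671 and was highest on DJB-1. Insl3 read 2134, 3505 and 2021 in Sham and 1566, 1679 and 1814 in DJB, and was highest on Sham-2. Prm2 and Odf1 were picked after their values were seen. Prm2, a protamine of sperm chromatin, read 6313 and 4351 on Sham-1 and Sham-2, 235.7 on DJB-2 and 69.5 to 117.6 on the other arrays. Odf1, a protein of the sperm tail, read 1346 and 904.1 on Sham-1 and Sham-2, 72.0 on DJB-2 and 5.59 to 14.0 elsewhere. The arrays on which Adam7, Cst8 and Spink11 were bright included those with the highest values of Prm2 and Odf1. Of other testis genes, picked likewise, Prm1, Tnp1, Tnp2 and Akap4 were also highest on Sham-1 and Sham-2. In contrast Acrv1 read 191.9 and 186.0 on Sham-1 and Sham-2 and 232.7 on Sham-3. Sycp3 was highest on Sham-3 and Star on DJB-2. The part of other organs in the values was not tested.

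Among fat markers the visceral fat and mesothelium list fell for 2 of 10 genes: Tcf21, a transcription factor of visceral fat stroma, by 1.19 (SE 0.21, limma adjusted p = 0.0411), and Krt19, an epithelial keratin of mesothelium, by 2.51 (SE 0.36, limma adjusted p = 0.0294). Both calls were lost with the slide as a block, that of Tcf21 also under median scaling (limma adjusted p = 0.0515) and on leaving out any 1 array and that of Krt19 on leaving out any but Sham-3 or DJB-3, and within the slides Tcf21 differed by -1.42 and -0.73 and Krt19 by -2.84 and -1.84. The summed intensity of that list was 19959 to 23040 on the Sham arrays and 5707 to 9096 on the DJB arrays, without the gap between Sham-3 and the other Sham arrays seen for the epididymis genes. In the subcutaneous fat and mammary gland list Sfrp2, a secreted Wnt modulator, fell by 1.25 (SE 0.16, limma adjusted p = 0.0255), as the single call of 9 genes tested, lost without Sham-1, Sham-2 or DJB-2. Among 12 mature adipocyte genes Lep, Pparg and Retn fell (limma adjusted p of 0.0348 to 0.0435) and 0 rose, with the 3 calls kept on leaving out DJB-3 and lost on leaving out any other array or with the slide as a block, and that of Pparg also lost under median scaling (limma adjusted p = 0.0625). The remaining lists (ovary, oviduct and uterus; pancreas; kidney and adrenal gland; intestinal epithelium; lymph node; B cell; the Y-linked genes with Xist) had 0 calls.

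Their 2 brightest genes are given by list, each in the order Sham then DJB. In the lymph node list Ccl21a, a chemokine of lymphatic and lymph node stroma, read 54921, 53402 and 14357 in Sham and 6585, 5749 and 16350 in DJB, and it made up most of the summed intensity. Ccl19, a related chemokine, read 6341, 4847 and 3748 against 1809, 2374 and 2706. Among B cell genes Cd79b, a chain of the B cell receptor complex, read 1440, 2318 and 605.6 against 151.8, 209.5 and 573.3, and Bank1, a B cell adaptor, read 349.2, 436.0 and 260.6 against 264.3, 126.8 and 162.2. The B cell list summed to 3465, 5467 and 1746 in Sham and 850, 676 and 1460 in DJB. Its difference was negative for 9 of 9 genes tested, beside 49.6% of all named genes tested, with a median of -1.02. In the ovary, oviduct and uterus list, which summed to 2881, 1986 and 1222 in Sham and 697 to 849 in DJB, Greb1, an estrogen-regulated gene, read 1922, 1091 and 321.0 against 155.5 to 181.9. Greb1 made up most of the list's sum on Sham-1 and on Sham-2. Gdf9, an oocyte growth factor, read 335.1 to 384.0 against 230.3 to 281.1 and was highest on Sham-3. Sham-1 and Sham-2 had the highest sums of these 3 lists as well as of the epididymis and testis lists. The Y-linked genes Ddx3y, Eif2s3y, Kdm5d and Uty were above background on every array and Xist on none. The source of the values of the ovary, oviduct and uterus list was not tested. The part of lymph node and B cells in the members' values was not tested either.

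Among pancreas genes Cela1, an elastase, read 7096 to 9077 in Sham and 2585 to 4514 in DJB, and Ctrb1, a chymotrypsinogen, 509.6 to 966.5 and 658.2 to 893.1. Among kidney and adrenal genes Mc2r, the corticotropin receptor, read 1050 to 1467 in Sham and 233.8 to 521.2 in DJB, and Cyp11a1, which starts steroid synthesis, 198.8 to 655.4 and 302.3 to 707.4. The intestinal list summed to 2452 on Sham-1, 1370 on Sham-2 and 598 to 1073 on the other arrays. Of its genes Lct, the lactase, read 243.8 to 284 in Sham and 196.1 to 275.8 in DJB, and Muc2, a secreted mucin, 149.3 to 162.5 and 88.3 to 100.1. The Y-linked Ddx3y read 1855 to 2393 in Sham and 1337 to 1772 in DJB, and Eif2s3y 1981 to 2208 and 993.8 to 1648.

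**Figure D5:**
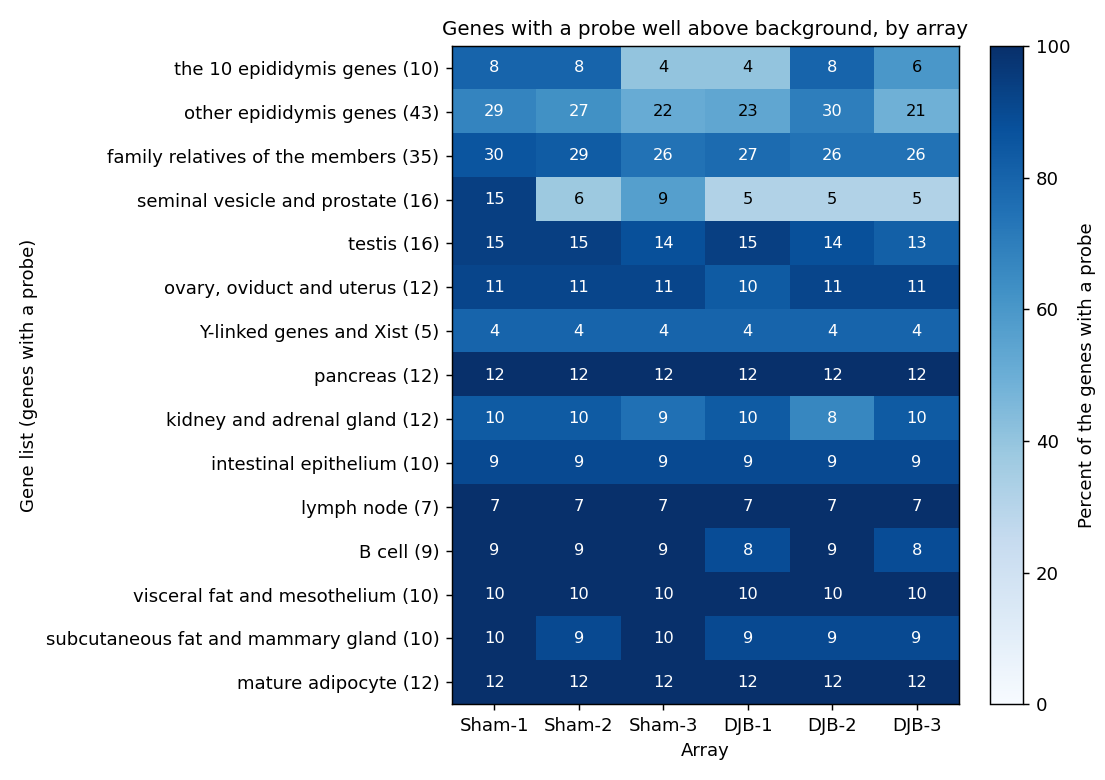
Number of genes with a probe well above background on each array (printed in each cell) for the lists in the rows, with the number of genes with a probe in brackets and the percent as color. The 10 epididymis genes vary from 4 to 8 over the arrays, seminal vesicle and prostate genes stand out on Sham-1 with 15 of 16, and the fat lists hardly vary.

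The genes whose level ran most like a member over the 6 arrays were taken from 4093 named genes with an SD of at least 0.5, as a description of 6 points that share scaling and slide. For Spink11 they were Wfdc10, an epididymal protease inhibitor (Pearson r = 0.996), Coch (0.989) and Col8a2 (0.979). On 3 of the 6 arrays Spink11 lay under the lowest level above background, where values have no order. Its r values thus rest mostly on which arrays were bright. Adam7 ran most like Serinc2 (0.993), Arg2 (0.990) and Cdh1 (0.988), the last the adhesion molecule of epithelia. Cst8 ran most like 1700001P01Rik (0.988), Sun5 (0.986), a protein of the sperm neck, and Btbd35f1 (0.975). Crisp1 ran most like Crisp3 (0.995), whose probe shares its sequence, then Spink8 (0.951) and Ces2b (0.936). Adam28 ran most like Vmn2r53, Vipas39 and Trim72 (0.940 to 0.971), and Rnase10 most like Fas, C6 and Lmo4 (0.976 to 0.978). The number of genes with an r above 0.9 was 215 for Rnase10, 208 for Adam7, 92 for Cst8, 31 for Spink11, 12 for Adam28 and 8 for Crisp1.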

How the data were processed

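Total RNA was labelled with cyanine 3 and hybridised to 1-colour Agilent arrays. Per the file headers, the authors quantified the scans with Agilent Feature Extraction 12.0.3.1, protocol GE1_1200_Jun14, and the build field reads mm9. The deposited intensities are linear, background-subtracted and not scaled between arrays. Among the members' probes, a spot without the scanner's flag for a positive and significant signal holds a small stand-in value. Spots with that flag but not well above background hold measured values. The authors also deposited log2 values per probe, used as an alternative; each column correlated best with its own array, and its medians were 4.55 to 4.56, while its centring and normalization are not stated. The submitters' processing notes name limma. A deposited p-value column of the scanner files was not used.

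Outlying spots were left out, and log2 intensity minus the array's 75th percentile was tested with limma 3.58.1 (R 4.3.3) over probes well above background on at least 3 of 6 arrays, with Benjamini-Hochberg adjustment at 0.05. A gene stood by its brightest tested probe. The fit was tested on simulated data. Array number limits the precision. Symbols were taken through RefSeq accessions, which matched for 48048 of 48467 RefSeq-named probes. The genes named were all members, the called genes of each list (with none called, the 2 brightest), and the 3 genes most like each member (those for Lcn9 are not reported here); others are said to have been picked after their values were seen. The bounds on folds set the bright group's mean over all its arrays against, per dim array, the higher of its lowest level above background and the probe's own. The members and lists were chosen with earlier results of these data known. The series' design text describes another experiment and was not used. Alternatives covered background correction, scaling, filters, slide, replicate number, prior and each array left out.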

Additional observations from a re-analysis of the deposited data

How the results depend on the processing

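The count of 0 called among the epididymis probes, without the accession-named ones, was the same under all 15 alternatives of the fit. Of the accession-named probes, that of Rnase10 passed under normexp background correction (limma adjusted p = 0.0497). By the other flags tried, 25 to 39 of the 72 values were above background. The flag for a positive and significant signal gave 9, 7 and 6 in Sham and 4, 8 and 5 in DJB. By that flag Sham-3, DJB-1 and DJB-3 no longer had equal counts. Mean pixel signal over local background plus 3 SD gave 5, 6 and 3 in Sham and 3, 5 and 3 in DJB. The median difference of the tested epididymis probes became -0.26 without the filter on dim probes, which takes in all 12, and lay between -0.04 and 0.22 when 1 array was left out. The direction of 4 uncalled differences turned: Rnase10 (the dimmer probe) to 0.063 and Spink11 to 0.15 under normexp background correction, Lcn9 to -0.038 without Sham replicate 2 (-0.038 to 0.22 with 1 array left out), and Crisp1 to -0.89 without Sham replicate 3 and -1.79 without DJB replicate 2 (-1.79 to 1.63 with 1 array left out); the cause was not tested. Of the other epididymis genes 0 were called without the filter, with the slide as a block and with the replicate block, 1 with the mean of a gene's tested probes, and 0 to 7 with 1 array left out. Over all probes, 4967 were called (3137 lower and 1830 higher). The count was 11905 under normexp (4899 lower and 7006 higher), 10614 with a trended robust prior (5328 and 5286), 7549 with probes above background on all 6 arrays (4064 and 3485), 649 without the filter, 707 with the slide as a block, and 119 to 3971 with 1 array left out. Median scaling, which moved the median of all probes by 0.11, gave 2026 lower and 1906 higher. Equal replicate numbers did not pair the samples (correlations of deviations of -0.18, -0.12 and -0.29), and the replicate block called 0 of all probes. The named calls outside the members each held under 4 to 10 of 15 alternatives, which were added after seeing the data, and none reversed. Values under the lowest level above background limit what can be said of Crisp4, Lcn5, Lcn8, Spink11 and the dim probes of the other members.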
